A study of Mus musculus with 59 samples.

Results

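Mice heterozygous for Ank2 that had received fluoxetine (HT fluoxetine, 10 libraries) were compared with wild-type mice that had received vehicle (WT vehicle, 10 libraries). The members were chosen by the genotype and drug in the sample titles and make up 20 of the 59 RNA-seq libraries of the study. All mice were C57BL/6J, prefrontal cortex was dissected on postnatal day 25, and treatment ran for 3 weeks from day 3 to day 24 through the mother's milk. Each group holds 5 female and 5 male libraries. HT means heterozygous. The allele, the dose and the make-up of the vehicle are not given in the sources used here. The labels do not say whether replicates came from separate animals or litters, so p-values measure only the spread between these libraries, which may be technical. The comparison asks how a treated heterozygote differs from an untreated wild-type animal. The HT vehicle (10 libraries) and WT fluoxetine (9 libraries) groups serve to set the parts of that difference side by side. The other 20 libraries, from mice given lithium, enter no comparison of genes. All 59 libraries enter the shared estimate of spread, the choice of genes tested and the gene means from which deviations are taken.

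Ank2 codes for ankyrin-B, an adaptor that ties ion channels, transporters and cell adhesion molecules to the spectrin skeleton under the membrane, and a long neuronal form of it is found in axons. It is a known autism risk gene. Fluoxetine blocks the serotonin transporter, which is made by serotonin neurons of the brainstem that send axons to the cortex. The cell bodies of these neurons, and so most of the transporter's mRNA, lie outside the tissue sampled. Immediate early genes, which cells switch on within minutes of activity, and genes induced by glucocorticoid hormones are common readouts of neuronal activity and of the stress axis.

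Values are normalized estimated read counts per gene, called normalized values here. Over the 20 libraries they summed to 30.3 to 33.8 M per library (M for mega), and the estimated depth was 27.2 to 36.3 M reads. The tissue label was checked with markers: Slc17a7, the glutamate transporter of cortical excitatory neurons, was between 34579.8 and 58646 in every library, and Fev, a serotonin neuron factor, was at 0 in 19 of 20. In 1 library, HT fluoxetine female replicate 2, cortical and other markers went apart. Its normalized values of the cortical layer genes Cux2 (938) and Tbr1 (1093) were the lowest of its group, where the other 9 libraries had at least 3272 and 3576. The choroid plexus gene Ttr was at 72657 in it and at 49.0 or less in the other 9, and the dentate gyrus gene Prox1 was at 4900.0 against at most 438. Its median correlation with its own group was 0.951, the lowest of the 20. WT vehicle female replicate 1 had the highest level of olfactory bulb genes of the 20, 2.61 on the log2 scale, with WT vehicle female replicate 2 next at 2.13. Replicate 1 also had the lowest median correlation with its own group among WT vehicle libraries, 0.983. HT fluoxetine female replicate 2 and WT vehicle female replicate 1 are called the libraries that stood apart, a choice made after seeing the data. Values without them are given beside the results they moved most. Xist, the RNA of the inactive X chromosome, was at 9791 in HT fluoxetine female replicate 4 and at 29462 to 43149 in the other 9 female libraries of the 2 groups. Without that library 1427 genes were called higher and 1526 lower, against 1531 and 1657 with it.

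Ank2 was measured first, as the check of the labels (ENSMUSG00000032826, chromosome 3, 126921612 to 127499350, minus strand, GRCm38). Its normalized value was 17431 to 22813 with a median of 22391 in HT fluoxetine libraries and 23284 to 30855 with a median of 28928 in WT vehicle libraries. Every HT fluoxetine library lay below every WT vehicle library, and the lowest value was that of female replicate 2, with 20481 the lowest of the other 9. HT vehicle libraries ran from 18538 to 21059 and WT fluoxetine libraries from 29585 to 35821. Ank2 fell by 0.40 on the log2 scale (SE 0.038, limma with Benjamini-Hochberg adjustment, adjusted p = 2.26e-10), that is to 0.758 of the WT vehicle level, and by 0.40 in each sex. The 2 steps from WT vehicle to HT fluoxetine ran in opposite directions: the genotype difference in vehicle was -0.54 and the fluoxetine difference in HT 0.14, while by the other route fluoxetine in WT gave 0.20 and genotype under fluoxetine -0.59. Ank2 was higher with fluoxetine in both genotypes (adjusted p = 0.0104 in HT and 0.000352 in WT), and the difference between those 2 fluoxetine effects was -0.057 (SE 0.055, adjusted p = 0.844). These comparisons share libraries, so their values are given side by side and no agreement between them is counted as support.

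**Figure D1:**
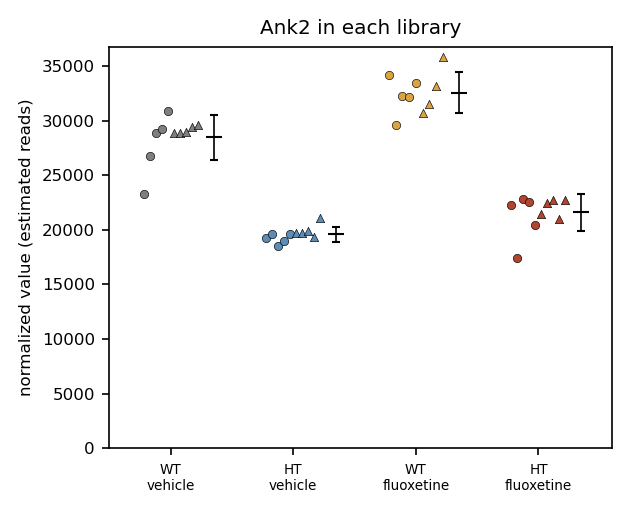
Normalized value of Ank2 in each library of the 4 groups (circles female, triangles male); the bar to the right of each group is its mean with the SD. The 10 HT fluoxetine libraries lie between 17431 and 22813, below the lowest WT vehicle library at 23284, and 7 of them lie above every HT vehicle library.

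Across all genes, 3188 of 16908 (18.9%) were called at an adjusted p under 0.05: 1531 higher (9.05%) and 1657 lower (9.8%) in HT fluoxetine, with 5428 at an unadjusted p under 0.05 (32.1%). Changes were small: the median absolute log2 difference of the called genes was 0.21, and 65 genes differed more than 2-fold. In 3178 of the 3188 called genes the estimate had the same sign in both sexes. All HT fluoxetine libraries lay above all WT vehicle libraries for 84 genes (0.497%) and below them for 151 (0.893%), together 1.39%. In the parts, genotype in vehicle gave 1 call (0.00591%, Ank2 itself, with 3.42% at an unadjusted p under 0.05), fluoxetine in HT 2370 (14.0%), fluoxetine in WT 2500 (14.8%) and genotype under fluoxetine 2 (0.0118%, with 15.7% at an unadjusted p under 0.05). The difference of the fluoxetine effects between genotypes gave 0 calls (0.0%, with 1291 or 7.64% at an unadjusted p under 0.05). Females gave 2460 calls (14.5%, 7.1% higher and 7.45% lower) and males 397 (2.35%, 0.662% higher and 1.69% lower). With only the 2 compared groups in the fit these counts were 306 and 350, and without both libraries that stood apart 1049 and 534. The test of whether the difference between HT fluoxetine and WT vehicle depended on sex gave 0 calls (0.0%, with 1028 or 6.08% at an unadjusted p under 0.05). For no gene was that difference shown to depend on sex. The 3 genes with the smallest p in that test were Mrpl23, Msantd3 and Ap5b1; Ap5b1 differed by 0.49 in females and -0.12 in males (adjusted p of the difference = 0.784).

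Transcript length moved with the groups. The length slope, that is how far a library's log2 values deviate from the gene mean for each doubling of transcript length, was 0.0216 ± 0.0137 (SD, n = 10) in HT fluoxetine and -0.0232 ± 0.0082 (SD, n = 10) in WT vehicle libraries. The groups did not overlap (-0.00557 to 0.0441 against -0.0382 to -0.00981). The difference of 0.0448 had a permutation p of 2e-05, the smallest that 100000 resamples can give, and within each sex the exact permutation p was 0.00794, the smallest that 5 against 5 allows. In the other groups, WT fluoxetine libraries ran from 0.0201 to 0.0621. HT vehicle libraries ran from -0.0441 to 0.0492, the highest being female replicate 1 and the next -0.0112. HT lithium libraries ran from 0.00576 to 0.0461 in females and from -0.0433 to -0.0159 in males. Short-transcript groups such as ribosomal proteins (median length 696.5 bases) were lower and long-transcript groups such as ion channels (4307 bases) higher, so counts of the lists most touched are also given after a length and GC trend was removed per library. The part of length in the result was not tested beyond that.

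**Figure D2:**
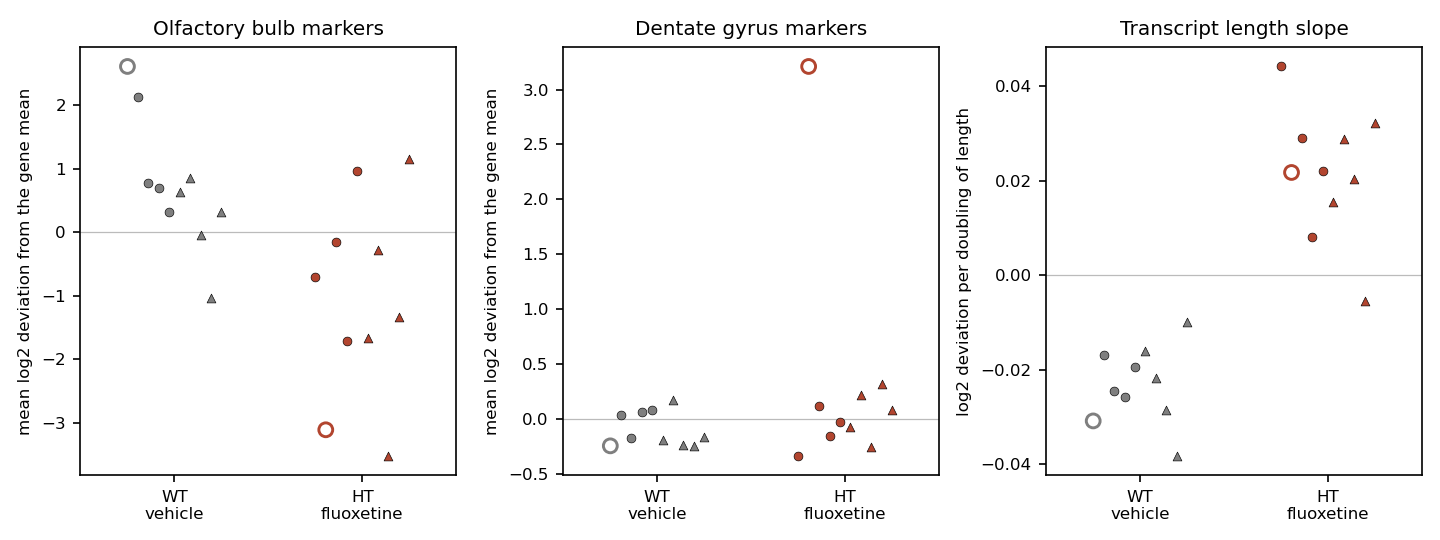
Left and middle, mean log2 deviation of the olfactory bulb and dentate gyrus marker lists in each WT vehicle and HT fluoxetine library; right, the transcript length slope of each library (circles female, triangles male; open symbols, HT fluoxetine female replicate 2 and WT vehicle female replicate 1). HT fluoxetine female replicate 2 stands at 3.21 on the dentate gyrus list, and the 2 groups do not overlap on the length slope.

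Activity-driven immediate early genes were lower in HT fluoxetine. Of 51 measured members, 15 were called lower and 0 higher (29.4% lower against 9.8% of all genes), and the median log2 difference was -0.22 against -0.0047 over all genes. In HT fluoxetine libraries Fos, the activity-induced transcription factor, ran from 107 to 425 with a median of 262, and in WT vehicle libraries from 333 to 924 with a median of 573. In 8 of the 10 HT fluoxetine libraries it was below the lowest WT vehicle library, and it fell by 1.14 on the log2 scale (SE 0.24, limma, adjusted p = 0.000483). Egr2, a zinc finger factor, had 29.4 to 139.9 (median 60.0) against 85.3 to 309 (median 145), a log2 difference of -1.33 (SE 0.29, adjusted p = 0.000795). The groups overlapped for both. Gadd45b, a growth arrest factor, (-0.46, SE 0.10, adjusted p = 0.000353) and Arl4d, a small GTPase, (-0.48, SE 0.11, adjusted p = 0.0012) were the other 2 with the smallest p.

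Some members were chosen after their values were seen. The synaptic gene Arc (-0.86, adjusted p = 0.0342), Egr1 (-0.59, adjusted p = 0.0016), Junb (-0.63, adjusted p = 0.014) and the orphan receptor Nr4a1 (-0.58, adjusted p = 0.0287) were called lower. Fosb (-0.44, adjusted p = 0.0962) and Npas4 (-0.53, adjusted p = 0.101) were not called, and Bdnf, the neurotrophin, had 0.04 (SE 0.089). Set side by side, Fos differed by 0.13 for genotype in vehicle, -1.28 for fluoxetine in HT, -0.51 for fluoxetine in WT and -0.63 for genotype under fluoxetine. On the list, fluoxetine in HT gave 15 lower calls (7.38% of all genes) and fluoxetine in WT 1 (7.78%), but the difference of the fluoxetine effects had no called member, with -0.76 (SE 0.34, adjusted p = 0.63) for Fos. Without both libraries that stood apart 11 members were called lower, and with length and GC removed 15. Leaving out 1 library at a time, Arc was lost in 9 of 20 fits.

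Promoter sequence was read from RefSeq windows (GRCm38.p6) that run from 250 bases before a start site to 50 after it, and 40 of the 52 listed immediate early genes had one. Sequences are shown for Fos, Egr2 and Junb, which are among the called members whose windows carry the letters searched. Not all such members are shown. The letters were TGACG, the core of the cyclic AMP response element, and 2 forms of the serum response element, both strands searched. The capitals mark these matches. Each line gives the 250 bases before the start site, 5′ to 3′ on the gene's strand, and CGTCA is TGACG read on the other strand.
Fos, chr12:85473640-85473889, plus strand: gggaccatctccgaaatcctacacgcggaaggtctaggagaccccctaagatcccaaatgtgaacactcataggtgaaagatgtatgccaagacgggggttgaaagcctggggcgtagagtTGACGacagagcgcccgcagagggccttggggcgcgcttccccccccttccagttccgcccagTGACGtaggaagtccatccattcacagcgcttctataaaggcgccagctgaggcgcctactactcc
Egr2, chr10:67537619-67537868, plus strand: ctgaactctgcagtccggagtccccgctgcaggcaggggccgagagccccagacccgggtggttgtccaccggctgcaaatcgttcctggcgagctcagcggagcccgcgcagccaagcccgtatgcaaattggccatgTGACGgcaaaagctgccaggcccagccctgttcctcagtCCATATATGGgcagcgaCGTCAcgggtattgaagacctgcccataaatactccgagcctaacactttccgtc
Junb, chr8:84978749-84978998, minus strand: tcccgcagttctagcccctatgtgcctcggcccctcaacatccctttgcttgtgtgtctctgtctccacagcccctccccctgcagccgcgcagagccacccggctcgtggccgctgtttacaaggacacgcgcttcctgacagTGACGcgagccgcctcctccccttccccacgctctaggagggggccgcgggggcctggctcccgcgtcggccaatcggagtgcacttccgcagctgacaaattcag
TGACG was held by 35 of 57 immediate early windows (61.4%) against 20.8% of all 32851 windows, and by 8 of the 10 called members that had a window. The full palindrome TGACGTCA, which contains TGACG, was in 6 of the 57 windows (10.5%) against 1.79% of all, and the form of the serum response element marked in the Egr2 sequence in 3 windows (5.26%, all of Egr2) against 0.0761%. The other form was in 0 of the 57 against 0.0639% of all. A window holding these letters is a description of sequence only.

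Genes induced by glucocorticoids were higher. Of 27 measured members, 13 were called higher and 0 lower (48.1% against 9.05% of all genes), with a median log2 difference of 0.28. Plin4, a lipid droplet coat protein, ran from 32.7 to 305 (median 95.5) in HT fluoxetine and from 13.3 to 54.0 (median 29.0) in WT vehicle libraries. In 8 of 10 HT fluoxetine libraries it was above every WT vehicle library, and it rose 3.13-fold (log2 1.65, SE 0.27, limma, adjusted p = 1.51e-05). Its value in HT fluoxetine female replicate 2 was 305 and in the other 9 at most 140.2. Hif3a, a hypoxia-inducible factor, was at 287 to 801 (median 671) against 174 to 456 (median 372), a log2 difference of 0.84 (SE 0.18, adjusted p = 0.000672). The serum- and glucocorticoid-regulated kinase Sgk1 rose by 0.45 (SE 0.10, adjusted p = 0.00139) and the arrestin-domain gene Arrdc2 by 0.47 (SE 0.12, adjusted p = 0.00306).

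Fkbp5, the chaperone that limits receptor activity, is a further member named after its values were seen: it ran from 944 to 2870.2 (median 1539) against 805 to 1411 (median 1101), a log2 rise of 0.52 (SE 0.14, adjusted p = 0.0068). Tsc22d3, another classic target, had 0.28 (SE 0.11, adjusted p = 0.0697) and was not called, nor was Per1 (-0.10). Fluoxetine in HT gave 12 higher calls on the list (6.64% of all genes) and fluoxetine in WT 0 (7.0%), with 1 lower call in WT (7.78%). For Plin4 the fluoxetine difference was 1.89 in HT and 0.60 in WT, and their difference 1.28 (SE 0.39, adjusted p = 0.501), so no member was shown to respond differently between genotypes. The level of the list, that is the mean log2 deviation of its members from their means over all libraries, was highest in HT fluoxetine female replicate 2 (0.72, the others -0.10 to 0.45); the count was 9 without both libraries that stood apart. Of 35 windows on this list 1, of Sgk1 (shown here with the match in capitals), held the palindromic glucocorticoid response element, which was in 3 of all 32851 windows (0.00913%).
Sgk1, chr10:21993640-21993889, plus strand: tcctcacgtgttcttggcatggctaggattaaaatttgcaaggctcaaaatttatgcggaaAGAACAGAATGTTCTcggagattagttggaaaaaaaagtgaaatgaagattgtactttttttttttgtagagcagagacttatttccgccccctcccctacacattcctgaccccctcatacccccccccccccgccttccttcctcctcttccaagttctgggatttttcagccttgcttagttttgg

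**Figure D3:**
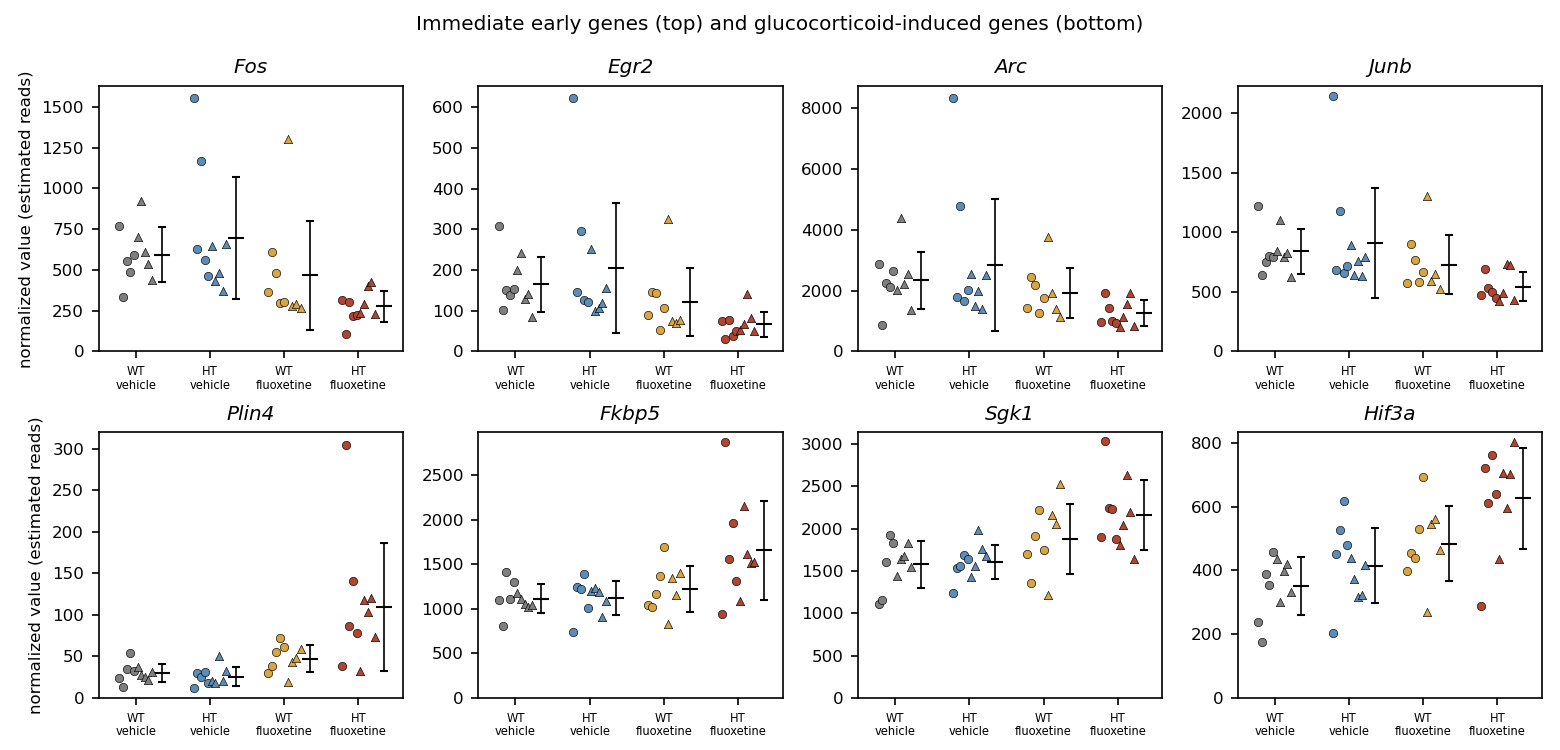
Normalized values of 4 immediate early genes and 4 glucocorticoid-induced genes in each library of the 4 groups (circles female, triangles male; bar, mean with SD). Fos runs from 107 to 425 in HT fluoxetine and from 333 to 924 in WT vehicle, and 8 of 10 HT fluoxetine libraries lie above every WT vehicle library for Plin4.

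Genes of protein synthesis, respiration and protein breakdown were lower, by small amounts. The counts of calls are set against 9.8% of all genes called lower and 9.05% called higher. Cytoplasmic ribosomal protein genes had 61 of 79 lower and 0 higher (77.2%), a median of -0.24, and 15 members with every HT fluoxetine library below every WT vehicle library (0.893% of all genes). Rpl34 was at 1232 to 1466 (median 1313) against 1614 to 1842 (median 1742), a log2 difference of -0.38 (SE 0.045, limma, adjusted p = 2.1e-08), and Rpl9, Rps24 and Rpl26 differed by -0.35, -0.30 and -0.32. Ribosomal protein genes share near-identical copies in the genome, and how the authors' counting divided them is not given in the sources used here. Mitochondrial ribosomal proteins had 33 of 78 lower (42.3%), with Mrpl33 at 342 to 489 (median 405) against 506 to 631 (median 581) (log2 -0.50, SE 0.056, adjusted p = 6.95e-09). Complex I, the entry point of the respiratory chain, had 32 of 38 nuclear-encoded members lower (84.2%, median -0.22); Ndufs3 (-0.22), Ndufa4 (-0.33) and Ndufb6 (-0.31) did not overlap between groups. Complexes II to V had 29 of 41 lower (70.7%), among them Atp5e, an ATP synthase subunit, at 916 to 1304 (median 1017) against 1401 to 1655 (median 1575) (log2 -0.59, SE 0.06, adjusted p = 7.83e-10) and Usmg5, another (-0.50, adjusted p = 3.41e-11). Proteasome subunits had 19 of 31 lower (61.3%), with the core particle subunits Psmb5 (-0.26), Psmb1 (-0.20) and Psmb7 (-0.29, adjusted p = 6.3e-10).

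The same lists read in the parts had 56 and 62 ribosomal protein calls lower for fluoxetine in HT and in WT, and 32 and 34 complex I calls, against 7.38% and 7.78% of all genes, with 0 calls in both genotype comparisons. With the length and GC trend removed per library the lower calls came to 44 of 79 for cytoplasmic ribosomal proteins, 18 of 78 for mitochondrial ribosomal proteins, 24 of 38 for complex I, 22 of 41 for complexes II to V and 15 of 31 for the proteasome, and 4 ribosomal proteins and 1 mitochondrial ribosomal protein were then called higher. Most mitochondrially encoded messages went the other way: 5 of 13 were higher and 0 lower (38.5% against 9.05%, and 7 higher with length and GC removed), with a median of 0.18. Estimates were above 0 for 11 members and below 0 for 2, the lowest at -0.73 and not called. The level of the list overlapped between groups, at -0.087 to 0.416 in HT fluoxetine and -0.307 to 0.269 in WT vehicle libraries. The complex I subunit mt-Nd6 was at 1663 to 2737 (median 2088) against 1193 to 1618 (median 1404), a log2 difference of 0.56 (SE 0.092, adjusted p = 1.24e-05) with no overlap. The subunit mt-Nd4l rose by 0.97 (SE 0.16, adjusted p = 1.59e-05) and mt-Nd5 by 0.29, while mt-Nd1 (0.12, adjusted p = 0.157) was not called. The gene mt-Nd4l overlaps mt-Nd4 in the mitochondrial genome, so reads in the overlap cannot be told apart.

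**Figure D4:**
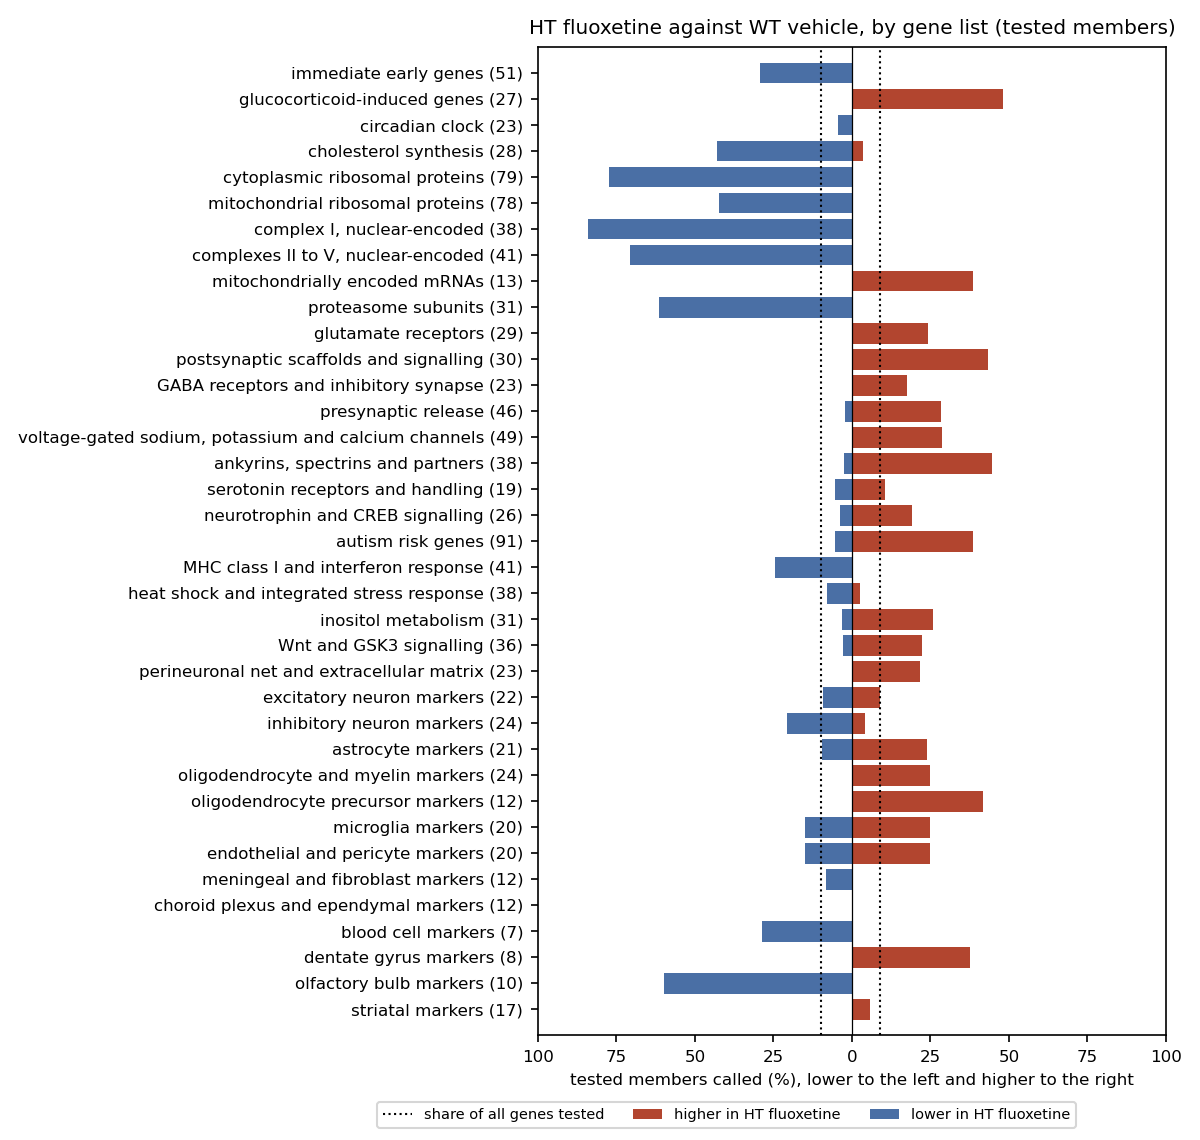
Share of the tested members of each list called higher (right) or lower (left) in HT fluoxetine, in percent, with the number tested in brackets; dotted lines mark the share over all genes tested, 9.05% higher and 9.8% lower. The bars of ribosomal, respiratory and proteasome genes point left and those of synaptic, channel and glucocorticoid-induced genes right.

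Genes of cholesterol synthesis were mostly lower. Of 28 members, 12 were called lower and 1 higher (42.9% lower against 9.8% of all genes), with a median of -0.14 and 25 of 28 estimates below 0. Insig1, a sterol sensor that holds back synthesis, was at 1559.8 to 1855 (median 1739.8) in HT fluoxetine against 1908 to 2258 (median 2096), with no overlap (log2 -0.28, SE 0.057, limma, adjusted p = 0.000254). Stard4, a cholesterol transfer protein (-0.34, adjusted p = 5.68e-05), Fdps, a farnesyl diphosphate synthase (-0.27, adjusted p = 0.000122), and Tmem97 (-0.21, adjusted p = 0.00344) were also lower. Idi1, an isomerase of the pathway named after its values were seen, fell by 0.19 (adjusted p = 0.022), and Hmgcs1, which makes an early intermediate, had -0.12 (adjusted p = 0.132) and was not called. With length and GC removed 7 members were lower, and without WT vehicle male replicate 2 also 7. TCACNCCAC, the sterol regulatory element, was in 1 of 23 windows of the list (Hmgcs1) against 1.24% of all windows.

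Synaptic genes were higher in several classes. Of 29 glutamate receptor genes 7 were higher and 0 lower (24.1% against 9.05%), of 30 postsynaptic scaffold and signalling genes 13 (43.3%), of 46 presynaptic release genes 13 higher and 1 lower (28.3%), and of 23 GABA receptor genes 4 (17.4%). Grin2a, an NMDA receptor subunit, was at 8153 to 13078 (median 9236) in HT fluoxetine and 5668 to 8149 (median 7202) in WT vehicle, with no overlap, and rose by 0.43 (SE 0.066, limma, adjusted p = 4.4e-06). Shank1, a scaffold of excitatory synapses, was at 19869 to 29034 (median 24019) against 15138 to 19821 (median 18274) and rose by 0.42 (SE 0.057, adjusted p = 3.21e-07), again with no overlap. Camk2a, the synaptic kinase, rose by 0.33 (SE 0.059), Bsn, a presynaptic scaffold, by 0.32, and Dnm1, which pinches off vesicles, by 0.25. Shisa7, an inhibitory synapse protein, rose by 0.27 (SE 0.035, adjusted p = 1.21e-07) with no overlap, and Gabrb1, a GABA receptor subunit, by 0.31. In the parts, the higher calls for fluoxetine in HT and in WT were 7 and 4 for glutamate receptors, 11 and 9 for postsynaptic genes, 12 and 14 for presynaptic genes and 4 and 7 for GABA receptors, against 6.64% and 7.0% of all genes. With length and GC removed the higher calls on these lists were 4, 7, 9 and 5, and with quantile normalization 5, 9, 8 (with 5 lower) and 3. Without HT fluoxetine female replicate 2 they were 7, 20, 18 and 7 (with 1 lower), and without both libraries that stood apart 6, 17, 12 and 6 (with 1 lower). Presynaptic calls came to 8 without HT fluoxetine male replicate 3.

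Voltage-gated channels had 14 of 49 higher and 0 lower (28.6% against 9.05% of all genes), with Scn8a, a sodium channel (0.23, SE 0.043, adjusted p = 0.000119), Cacna1a, a calcium channel (0.22) and Kcnab2 (0.28). Ankyrins, spectrins and their partners had 17 of 38 higher and 1 lower (44.7%). Ank3, the ankyrin of the axon initial segment and a paralogue of Ank2, was at 15114 to 17711 (median 15982) in HT fluoxetine and 11160.5 to 14126 (median 12895) in WT vehicle libraries, with no overlap, and rose by 0.34 (SE 0.041, limma, adjusted p = 2.42e-08). The spectrins Sptbn1 (0.18, adjusted p = 1.08e-06) and Sptb (0.32, adjusted p = 1.67e-05) did not overlap either, and Map1a, a microtubule protein, rose by 0.25. In the parts, Ank3 differed by 0.09 for genotype in vehicle, 0.25 for fluoxetine in HT and 0.31 for fluoxetine in WT. Ank1, the erythrocyte ankyrin, had 0.081 (SE 0.092, adjusted p = 0.584). Autism risk genes had 35 of 91 higher and 5 lower (38.5%), among them Med13l (0.22), Qrich1 (0.19, no overlap) and Nf1 (0.22). With length and GC removed the higher calls were 9 of 49 channels, 10 of 38 ankyrin partners and 29 of 91 autism genes. With quantile normalization they were 10, 8 (with 2 lower) and 26. Without HT fluoxetine female replicate 2 they were 21, 17 and 36, and without both libraries that stood apart 18, 12 and 33. Without WT vehicle female replicate 1 the ankyrin count was 12.

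**Figure D5:**
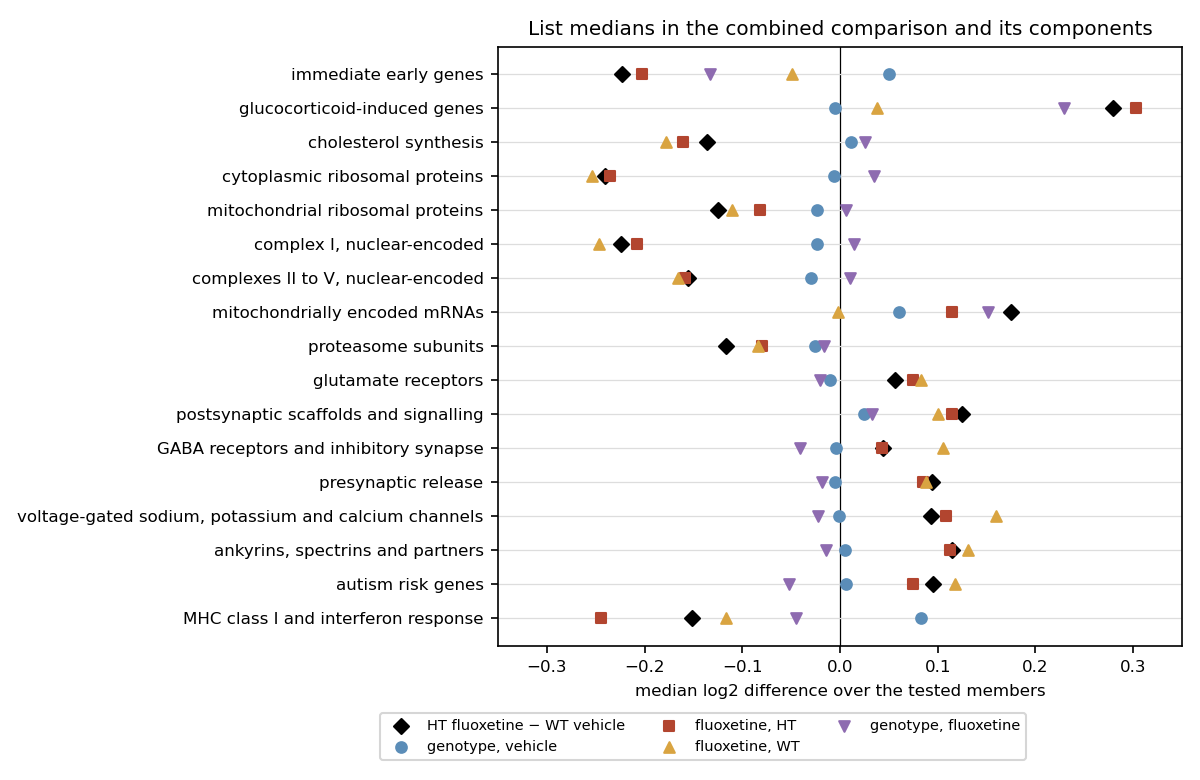
Median log2 difference over the tested members of 17 lists for HT fluoxetine minus WT vehicle (black diamonds) and for the 4 comparisons it divides into, which share libraries. The combined median of the immediate early genes is -0.22 and that of cytoplasmic ribosomal proteins -0.24, with genotype in vehicle at 0.05 and -0.0064.

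Serotonin genes were called about as often as all genes. Of 21 listed, Slc6a4 and Htr2b were below the minimum and not tested. Of 19 tested 2 were higher and 1 lower (10.5% and 5.26%, against 9.05% and 9.8% of all genes). Slc6a4, the transporter fluoxetine blocks, was at 0 to 5.22 in HT fluoxetine and 1.71 to 8.18 in WT vehicle libraries, and Tph2, the serotonin-making enzyme, at 19.8 to 41.5 and 16.5 to 50.1. S100a10, a partner of some serotonin receptors, was at 286 to 492 (median 410.2) against 495 to 590.3 (median 532), with no overlap, and fell by 0.39 (SE 0.057, limma, adjusted p = 2.14e-06). Htr1a rose by 0.33 (SE 0.10, adjusted p = 0.0124) and Maob, a monoamine oxidase, by 0.14 (adjusted p = 0.0243); without both libraries that stood apart Htr1a had 0.22 (adjusted p = 0.1) and Maob 0.12 (adjusted p = 0.0714), past the threshold in neither. Htr2a had 0.08 (SE 0.15), with 412 in HT fluoxetine female replicate 2 against 2017 to 2582 in the other 9, and Htr1b (0.10), Htr2c (0.13), Htr4 (0.69), Htr5a (-0.12) and Maoa (-0.067) were not called.

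Other cell types were followed by fixed markers. In bulk tissue fewer cells of a type and less RNA per cell cannot be told apart. Over all genes 9.05% were higher and 9.8% lower. Astrocyte markers had 5 of 21 higher and 2 lower (23.8% and 9.52%; 8 and 1 with length and GC removed, 4 and 0 without both libraries that stood apart), with Slc1a2, the main glutamate transporter, at 112321 to 155815 (median 124437) against 68313 to 110307 (median 101990.0) and a rise of 0.42 (SE 0.067, limma, adjusted p = 1.07e-05), with no overlap. Oligodendrocyte and myelin markers had 6 of 24 higher (25.0%) and all 24 estimates above 0, with the transcription factor Myrf at 0.57 (SE 0.14, adjusted p = 0.00375), while the myelin gene Mbp (0.37) was not called. Their level was 1.52 in HT fluoxetine female replicate 2 and -0.11 to 0.32 in the other 9; without that library 3 were called and without both 1. The list's median difference was 0.54 in females and 0.11 in males; the difference between these was not tested. Precursor markers had 5 of 12 higher (41.7%), among them Pdgfra (0.40, SE 0.066, adjusted p = 1.17e-05) and Cspg4 (0.48, adjusted p = 0.000114); 4 were called without that library. Microglia markers were divided: 5 of 20 higher, led by Csf1r (0.36, adjusted p = 6.92e-05), and 3 lower, led by Tyrobp (-0.30, adjusted p = 0.000118). Leaving out 1 library at a time gave 2 to 6 higher microglia calls, 2 without HT fluoxetine female replicate 4, HT fluoxetine male replicate 4 or WT vehicle female replicate 1, and the count moved by more than 1.5 times in 9 of 20 fits. Without both libraries that stood apart 2 were higher and 2 lower. Endothelial markers had 5 of 20 higher, such as Abcb1a (0.27), and 3 lower, led by the tight-junction gene Cldn5 (-0.32, adjusted p = 0.000226). MHC class I and interferon genes had 10 of 41 lower and 0 higher (24.4%), with Ifitm3 at -0.46 (adjusted p = 2.99e-05) and H2-D1 at -0.19; 5 were called without both libraries and 3 with length and GC removed, where H2-D1 had -0.069. Their median was -0.26 in females and -0.063 in males. Of 7 tested blood markers 2 were lower (28.6%), among them Hbb-bt, a beta globin, which fell by 0.66 (SE 0.19, adjusted p = 0.0127).

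Neuron markers are set against 9.05% of all genes higher and 9.8% lower. Of 24 inhibitory neuron markers 1 was higher and 5 lower (4.17% and 20.8%). The vesicular GABA transporter Slc32a1 was at 1787 to 2492 (median 1957) against 2036 to 3327 (median 2284). It fell by 0.25 (SE 0.083, limma, adjusted p = 0.0249). Dlx1 (-0.93, adjusted p = 0.0196) and Dlx5 (-0.74, adjusted p = 0.0319), homeobox genes of interneurons, were also lower; without both libraries that stood apart 0 members were called. Of 22 excitatory neuron markers 2 were higher and 2 lower (9.09% each), near the shares of all genes. Without HT fluoxetine female replicate 2, 9 were higher and 1 lower.

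The remaining lists are set against 9.05% of all genes higher and 9.8% lower. Neurotrophin and CREB signalling had 5 of 26 higher and 1 lower (19.2%; 7 and 1 with length and GC removed, 3 and 2 with quantile normalization), led by Crebbp, a CREB co-activator (0.28, SE 0.042, limma, adjusted p = 2.84e-06), and the receptors Ntrk3 (0.20) and Ntrk2 (0.15). Perineuronal net and matrix genes had 5 of 23 higher (21.7%), led by tenascin-R, Tnr (0.35, SE 0.051, adjusted p = 1.12e-06). Inositol metabolism had 8 of 31 higher and 1 lower (25.8%), with the inositol trisphosphate receptor Itpr1 at 0.24 (adjusted p = 0.0188). The inositol count was 4 without HT fluoxetine male replicate 3, without WT vehicle female replicate 1 (where Itpr1 was not called), with length and GC removed, and with only the compared groups, and 5 without WT vehicle female replicate 2. Wnt and GSK3 signalling had 8 of 36 higher and 1 lower (22.2%), with the receptor Fzd2 at 0.35 (adjusted p = 0.000992) and the kinase Gsk3b at 0.15 (adjusted p = 0.0144). Heat shock and stress response genes had 1 of 38 higher and 3 lower, the latter Atf4 (-0.22, adjusted p = 0.000382), Hspe1 (-0.17) and Ddit3 (-0.22). With length and GC removed this turned to 3 higher and 1 lower, and without HT fluoxetine female replicate 2 there were 0 higher and 3 lower. Clock genes had 1 of 23 lower, Nfil3 (-0.35, adjusted p = 0.0263), which was not called without HT fluoxetine female replicate 4, WT vehicle female replicate 1 or WT vehicle male replicate 2. Without HT fluoxetine female replicate 2 there were 3 clock genes higher and 2 lower, and without both libraries that stood apart 3 higher and 0 lower. Meningeal markers had 1 of 12 lower and striatal markers 1 of 17 higher, and without HT fluoxetine female replicate 2 these were 0 and 3. CACGTG, the E-box bound by clock factors, was in 6 of 28 clock gene windows (21.4%) against 7.15% of all windows.

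Markers of neighbouring brain regions differed between libraries. Olfactory bulb genes had 6 of 10 lower (60.0% against 9.8% of all genes). Their level in HT fluoxetine libraries ran from -3.51 to 1.15 and in WT vehicle from -1.04 to 2.61, overlapping widely. Th, the tyrosine hydroxylase of bulb and midbrain neurons, was at 17.1 to 861 (median 227) against 265 to 1773 (median 608), a log2 difference of -1.69 (SE 0.53, limma, adjusted p = 0.019). The 10 largest falls held S100a5 (-2.87), Shisa3 (-1.84), Th, Adamts19 (-1.68), Doc2g (-1.60), Vipr2 (-1.58), Frmd7 (-1.57), Ush1g (-1.57), Trh (-1.48) and Trdn (-1.38), of which S100a5, Shisa3, Th, Doc2g, Vipr2 and Trh are on the olfactory bulb list. S100a5 was at 0 in 3 HT fluoxetine libraries. Without HT fluoxetine female replicate 2 the bulb count was 1 and without both libraries 0. Of 8 dentate gyrus markers 3 were higher (37.5% against 9.05% of all genes). Prox1 was among them (0.68, limma, adjusted p = 0.0198, and 0.33 without HT fluoxetine female replicate 2). It did not overlap although only 1 library was far above the rest. Choroid plexus and ependymal markers had 0 of 12 called, against 18.9% of all genes called either way. The part of dissection in the bulb and dentate results was not tested.

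The largest rises held 2 processed pseudogenes, Eif4a-ps4 and Rpl14-ps1, which were at 0 in many libraries and share sequence with their parent genes, and are uncertain. Bc1, a brain cytoplasmic RNA, was at 899 to 4275 (median 2643) against 837 to 1578 (median 1172). In 9 of 10 HT fluoxetine libraries it was above every WT vehicle library, the exception being female replicate 2, and it rose 2.28-fold (log2 SE 0.28, limma, adjusted p = 0.00164). Kirrel2, a cell adhesion protein, rose by 0.82 (SE 0.16, adjusted p = 0.000215). Thbs4, Sspo, Myh7b and Pkp2 had 1.06, 0.76, 0.73 and 0.72; HT fluoxetine female replicate 2 was at 1120.4 for Pkp2, against at most 235 in the other 9, and without it Thbs4 (0.79, adjusted p = 0.06), Sspo (0.62, adjusted p = 0.0729) and Pkp2 (0.43, adjusted p = 0.0717) were not called. Myh7b was not called without HT fluoxetine female replicate 4.

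Some genes were called only when the 2 steps were added. In all, 865 genes were called between HT fluoxetine and WT vehicle and in none of the 4 parts, 417 higher and 448 lower. Their median absolute log2 difference was 0.23. For the parts, a difference was counted as positive where it had the sign of the combined difference, and as negative otherwise. On that scale the median was 0.076 for genotype in vehicle and 0.15 for fluoxetine in HT. By the other route it was 0.10 for fluoxetine in WT and 0.12 for genotype under fluoxetine. Focad, a focal adhesion gene, was at 1437 to 1976 (median 1628) against 1217 to 1492 (median 1374), a rise of 0.27 (SE 0.052, limma, adjusted p = 0.000188) made of 0.15 and 0.12, or of 0.082 and 0.19. Lrp1, a lipoprotein receptor, rose by 0.23 (adjusted p = 0.000461), and Cx3cr1, the microglial fractalkine receptor, by 0.21 (adjusted p = 0.00109). Uba3, an enzyme of the NEDD8 pathway (-0.13, adjusted p = 0.000714), and Acly, which makes acetyl-CoA (-0.19, adjusted p = 0.00111), were lower. A gene called in the sum and not in a part is not shown to differ between them.

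Near Ank2 on chromosome 3, 54 other genes starting within 5 Mb were tested and 11 were called (20.4% against 18.9% of all genes), 7 higher and 4 lower, and 0 of them in either genotype comparison. They included Arsj (0.41, adjusted p = 0.0162), Col25a1 (0.28), Usp53 (0.24), Ostc (-0.15) and Rpl34, described above. Of 4 tested predicted genes inside Ank2 on its own strand, whose reads cannot be told apart from unspliced Ank2, 3 were higher, by 0.54 to 0.97 on the log2 scale, and 1 was not called (0.37, adjusted p = 0.306).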

How the data were processed

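RNA was sequenced from mouse prefrontal cortex with a stranded mRNA kit, per the labels' protocols. Salmon 0.11.2, R 3.6.0, DESeq2 1.19.11 and build GRCm38 are named, per the submitters' processing notes, without settings. Signal is the unit of the authors' deposited table, here normalized estimated counts per gene, for 51456 identifiers, of which 51285 matched a GRCm38 gene model; the rest held 0.00333% of the signal. Only 45.0% to 63.4% of a library's low values were whole multiples of the value of 1 read (within 0.1 steps), so read counts were not recovered and no count test was run. Estimated depth was 27.2 to 36.3 M reads (M for mega), and its counting error is part of the spread between libraries.

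Values were tested as log2(value + 1), with fold changes on that scale, for 16908 genes with a mean of at least 10. One linear model with 12 group means (genotype, drug, sex) was fitted to all 59 libraries with limma 3.58.1 in R 4.3.3 with a mean-variance trend and robust shrinkage (residual degrees of freedom 47), each sex weighing equally. Tests were two-sided, and a call needed an adjusted p (Benjamini-Hochberg, over all genes) under 0.05. Tables were handled with the R package data.table (version 1.17.8) and with pandas 2.3.3 in Python 3.11.15, numbers with SciPy 1.17.1 and NumPy 2.4.6, and plots with matplotlib 3.10.9. On simulated data with 16908 genes the fit recovered 100% of changes of 1 and 70% of changes of 0.3 on the log2 scale for HT fluoxetine against WT vehicle.

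The members, the 37 gene lists and the rules were chosen with earlier results of these data known. Named genes were Ank2; the 10 largest rises and 10 largest falls among calls of the same sign in both sexes, given a mean of 50 or more; up to 4 called members per list with the smallest p; the 5 genes with the smallest p called in none of the 4 parts; the 3 with the smallest p in the sex difference; and called genes within 5 Mb of Ank2 with the genes nearest to it. Predicted genes were counted and not named, and a few other genes are not reported here. Other genes with values (among them Arc, Egr1, Junb, Nr4a1, Fosb, Npas4, Bdnf, Fkbp5, Tsc22d3, Per1, Idi1, Hmgcs1, Ank1, mt-Nd1, Mbp, Xist and the serotonin receptors and Maoa) were chosen after their values were seen. Alternatives were other pseudocounts, filters and normalizations, a fit on the compared groups, array weights, removal of a length and GC trend, a replicate block and leaving out each library; leaving out both libraries that stood apart was added after seeing the data.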

Additional observations from a re-analysis of the deposited data

Results flagged for a closer look

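In 45 of 330 groups of 10 libraries looked at, the highest or lowest library stood so far from the next that the gap made up more than the 95% value of Dixon's test of the group's whole range; chance alone gives about 1 in 20. Of these, 30 were HT fluoxetine female replicate 2. For that library the gap, as a share of the range, was 0.599 for Ank2, 0.493 for Bc1, 0.594 for Thbs4, 0.660 for Pkp2, 0.518 for Fos, 0.477 for Fdps, 0.615 for Tmem97, 0.468 for Grin2a, 0.485 for Shisa7, 0.677 for Kcnab2, 0.752 for Sptb and 0.511 for S100a10. It was 0.571 for Ntrk3, 0.677 for Myrf, 0.952 for Prox1, 0.865 for Htr2a, 0.615 for Htr4, 0.725 for Htr5a, 0.514 for Egr1 and 0.722 for Mbp. Among list levels in the same library it was 0.656 for circadian clock, 0.570 for glutamate receptors, 0.696 for GABA receptors and inhibitory synapse, 0.512 for presynaptic release, 0.591 for voltage-gated sodium, potassium and calcium channels, 0.483 for heat shock and integrated stress response, 0.703 for excitatory neuron markers, 0.733 for oligodendrocyte and myelin markers, 0.851 for choroid plexus and ependymal markers and 0.816 for dentate gyrus markers.

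In WT vehicle female replicate 1 the share was 0.496 for Ank2, 0.523 for Fdps, 0.593 for Gabrb1 and 0.468 for Htr1b. In HT fluoxetine male replicate 4 the share was 0.675 for Rpl14-ps1 and 0.474 for Nr4a1. In WT vehicle male replicate 2 the share was 0.493 for Thbs4 and 0.707 for the level of striatal markers. In WT vehicle male replicate 4 the share was 0.483 for mt-Nd4 and 0.523 for the level of mitochondrially encoded mRNAs. In WT vehicle female replicate 3 the share was 0.647 for Hspe1 and 0.512 for the level of heat shock and integrated stress response. In HT fluoxetine female replicate 4 the share was 0.524 for Csf1r. In WT vehicle female replicate 2 the share was 0.502 for the level of glucocorticoid-induced genes. In HT fluoxetine female replicate 1 the share was 0.517 for the level of mitochondrial ribosomal proteins.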

How the results depend on the processing

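The counts of genes called higher and lower stayed within 1.5 times of 1531 and 1657 under every alternative run, and Ank2 kept its direction and call in all of them. Leaving out 1 library at a time gave 1187 to 1642 higher and 1345 to 1784 lower calls, 1468 to 2699 in females, 213 to 502 in males, 2049 to 2485 for fluoxetine in HT, 2164 to 2926 for fluoxetine in WT, 354 to 442 list members, and an Ank2 difference of -0.43 to -0.37. The lowest female count was without WT vehicle female replicate 1 and the lowest male count without WT vehicle male replicate 4. Male counts also fell to 254, 260, 241 and 255 without HT fluoxetine male replicates 2 and 5 and WT vehicle male replicates 2 and 3. Genotype in vehicle gave 1 to 2 calls (2 without WT vehicle female replicate 5). Genotype under fluoxetine gave 1 to 132: 132 without HT fluoxetine female replicate 1, 30 without female replicate 5, 5 without male replicate 1 or 2, and 1 without female replicate 4 or male replicate 4. The length slope difference was 0.0423 to 0.0478.

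Counts over all genes moved by more than 1.5 times as follows, and the cause was not tested. Counts of several gene lists moved as far, with examples given beside the lists. Without a filter on low values genotype in vehicle gave 4 calls. Genotype under fluoxetine gave 5 with quantile normalization, 5 with only the compared groups and 4 with array weights. Females gave 306 with only the compared groups and 1049 without both libraries that stood apart. Males gave 973 with array weights and 233 with length and GC removed. Array weights gave 3645 for fluoxetine in HT and 1 for the difference of the fluoxetine effects, and removing length and GC gave 1470 for fluoxetine in WT. GC content in place of length gave a slope difference of 0.0223 (permutation p = 0.897). Of 166 called genes with values, 35 lost their call without both libraries, 23 with only the compared groups, 17 without a filter, 17 with array weights, 16 with length and GC removed and 8 with quantile normalization, and none changed direction.

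With the replicate number as a block 1555 genes were called higher and 1673 lower. Same-numbered HT fluoxetine and WT vehicle libraries correlated at -0.23 to 0.27 in their deviations and 3 of 10 correlated best with their own number, so the numbers were not taken to pair the libraries. Depth limits what can be said of Slc6a4 and Fev, and genes under the mean of 10 were not tested.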
